A study of Mus musculus with 18 samples.

Results

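The genes described here are the solute carriers of families 1 to 22 in mouse, except Slc7a11. They were found by symbol, as every gene named Slc with a family number from 1 to 22 and a letter, and number 190 of the 55487 genes in the table. By transported substrate they fall into 15 classes. Of the 190, 8 carry a carrier symbol without being transporters by name, among them 2 scaffold proteins, antisense transcripts and pseudogenes, and these form a group of their own.

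Solute carriers move amino acids, sugars, ions, vitamins and metabolites across membranes, many of them by coupling a substrate to the inward gradient of sodium that the sodium pump maintains. In the kidney tubule the apical carriers take filtered solutes back from the urine and the basolateral ones pass them to the blood. Other carriers serve the cell itself, by setting its volume, its pH, and its supply of amino acids, phosphate and organic osmolytes.

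The RNA came from im-TEC, a mouse kidney tubule line that carries SV40 large T antigen and was grown without interferon-γ at the restrictive temperature before seeding. All 6 groups were kept for 48 h and held 3 libraries each: TGFβ (10 ng/mL) with S-adenosyl methionine (SAM, 0.5 mM), TGFβ with nicotinamide (NAM, 1 mM), TGFβ alone, SAM alone, NAM alone, and untreated control. The study concerns the enzyme that uses SAM to methylate NAM, and the design crosses the profibrotic cytokine TGFβ with either substrate. All groups are 1 cell line, nothing in the labels says that libraries are separate cultures, and p-values therefore measure the spread between libraries, which may be technical.

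Libraries were 3′ tag libraries with 4171170 to 7717626 reads in genes, of which the described genes took 0.475% to 0.606%. The treatment tags of SAM replicates 2 and 3 conflict with their titles, so called results that rest on them are also given without both, when 1 SAM library remains and is assumed to vary like the other groups. The SAM and TGFβ+SAM libraries carry a block of library numbers apart from the other 12. The labels do not say what this gap stands for, so SAM and any batch that goes with it cannot be told apart. TGFβ+SAM against SAM lies within that block of numbers. TGFβ+NAM replicate 1 and NAM replicate 3 deviated together from their groups (r = 0.168 across genes, at most 0.104 in other pairs of different groups). Among the tubular epithelial markers, Pax2, Pax8, Krt8 and Cdh16 were detected, Cdh1 had 19 reads over all libraries and Epcam had 0. Of the proximal tubule markers, Lrp2 and Aqp1 were detected, Hnf4a had 0 reads, Slc34a1 had 6 and Cubn 62. Reads for the loop and collecting duct markers Umod, Calb1 and Aqp2 were 0.

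Of the 190 carrier genes, 122 had at least 1 read and 68 had none in any library. Of the 122, 39 had 1 to 30 reads over all 18 libraries and 13 had more than 30 without passing the low-count filter, which left 70 for testing. Between 78 and 87 were detected in a library. Many carriers that define the reabsorbing tubule in the intact kidney were among the undetected, at this depth. They included Slc22a6 and Slc22a2, which take organic anions and cations up from blood, Slc9a3, the apical sodium-proton exchanger, Slc7a9, the cystine exchanger, Slc1a1, the glutamate carrier, and Slc13a3, the dicarboxylate carrier. Slc5a2, the main glucose cotransporter of the early proximal tubule, had 62 reads in all. These names were chosen after the values were seen.

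Levels are CPM, reads relative to a library's size after TMM correction. They are tag counts that are not divided by transcript length, so levels of different genes are not compared. Changes are fitted log2 fold changes ± SE, 3 libraries against 3, and a gene is called to have risen or fallen at an adjusted p under 0.05, from edgeR's quasi-likelihood test with Benjamini-Hochberg adjustment over all 13469 tested genes. Groups without overlap were common: 36.2% of all tested genes in TGFβ against control, 34.2% in TGFβ+NAM against NAM and 38.9% in TGFβ+SAM against SAM. The shares were 31.6% in SAM against control and 23.1% in TGFβ+SAM against TGFβ.

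TGFβ lowered more carriers than it raised in each of the 3 settings in which it was added. Against control it raised 5 and lowered 14 of the 70 tested members, or 27.1%, beside 19.4% called among all tested genes (9.7% higher and 9.74% lower). These counts include Slc1a3 and Slc14a1, which did not pass the low-count filter when only the TGFβ and control libraries were fitted. The phosphate importer Slc20a1 showed the largest rise among members with over 3 reads in each group, and Slc20a2, its paralog, fell. Falls also covered the glutamine exchanger Slc1a5, the chloride importer Slc12a2, the lactate carrier Slc16a1, the inositol carrier Slc5a3 and the urea channel Slc14a1. The median log2 change of the members was -0.232, against 0.00857 over all tested genes. In bulk RNA, fewer cells of a type and less RNA per cell cannot be told apart.

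With NAM present, TGFβ raised 5 and lowered 15 members (28.6%, beside 21.9% of all tested genes, 10.9% higher and 11% lower). With SAM present it raised 6 and lowered 19 (35.7%, beside 28.4%, 14.2% in each direction). The medians of the members were -0.169 and -0.229 in these comparisons, against 0.00181 and 0.00214 over all genes. TGFβ+SAM against SAM has no library in common with TGFβ against control. Between them, 59 of 70 members had log2 changes of the same sign (84.3%, beside 73.9% of all genes), with r = 0.727 across the members, which are not independent replicates. In total 35 members were called in at least 1 of the 3 comparisons and 0 were called in opposite directions. The share of all tested genes with such patterns over the 3 comparisons was not computed, so these counts are not a trait of the carriers. Slc20a1 and the scaffold gene Slc9a3r2 were higher in all 3, and 7 members were lower in all 3: Slc1a5, Slc6a18, Slc12a2, Slc14a1, Slc16a1, Slc20a2 and Slc9a3r1. Of these, Slc14a1 did not pass the low-count filter when only TGFβ and control, or only TGFβ+NAM and NAM, were fitted. Its calls there, counted above, rest on the inclusion of the other groups. Without SAM replicates 2 and 3, 18 members were called in TGFβ+SAM against SAM, 14 of them shared with the 25. When NAM replicate 3 and TGFβ+NAM replicate 1 were left out, 21 were called in TGFβ+NAM against NAM, 17 of them shared with the 20.

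Tubule markers differed between these groups as well. The 8 tubular epithelial markers, of which 7 had reads in both groups, summed to 662 to 719 CPM in TGFβ and 843 to 873 CPM in control. Its members differed in direction: Cdh16 averaged 55.5 CPM in TGFβ and 169 CPM in control and Pax2 averaged 200.3 CPM in TGFβ and 305 CPM in control, while Krt8 averaged 189 CPM in TGFβ and 99.4 CPM in control. The 5 proximal tubule markers, of which 3 had reads, summed to 154 to 195 CPM in TGFβ and 1075 to 1186 CPM in control, which was mostly Aqp1, at 106 CPM in TGFβ and 1031 CPM in control. Fibroblast markers stayed low, at 1.23 to 2.83 CPM in TGFβ and at most 0.423 CPM in control, with Lum at 0 reads and Pdgfrb the main contributor. The part of these shifts in the carrier results was not tested.

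**Figure D1:**
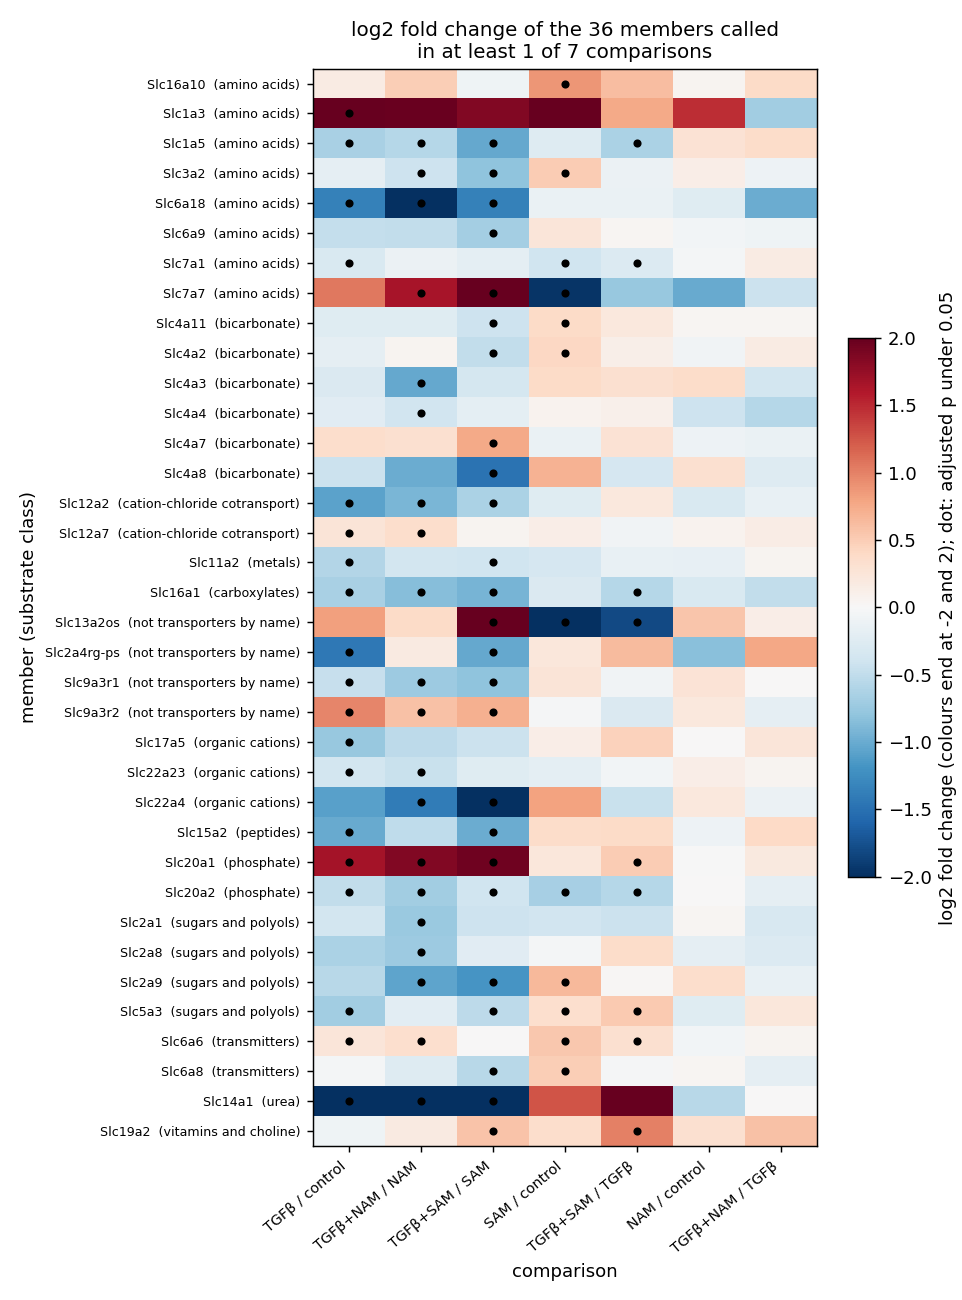
Fitted log2 fold change of the 36 members called in at least 1 of 7 comparisons, by comparison (columns) and substrate class (rows); a dot marks an adjusted p under 0.05 and colours end at -2 and 2. Rows such as Slc20a1 and Slc12a2 keep their colour over the 3 TGFβ columns, the NAM columns hold no dot, and the saturated values of Slc1a3 and Slc14a1 rest on few reads.

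SAM raised 8 and lowered 4 members against control (17.1%, beside 11.8% of all tested genes, 5.02% higher and 6.79% lower), with a median of 0.125 against 0.00119. The rises were the taurine carrier Slc6a6, the amino acid heavy chain Slc3a2, the creatine carrier Slc6a8, the inositol carrier Slc5a3, the urate carrier Slc2a9, Slc4a2 and Slc4a11 of the bicarbonate family, and Slc16a10, which carries aromatic amino acids. The falls were Slc7a1, Slc7a7, Slc20a2 and the antisense transcript Slc13a2os. Without SAM replicates 2 and 3 the number called was 5, of which 4 were among the 12: Slc6a6, Slc3a2, Slc20a2 and Slc13a2os. The other was the glial-type glutamate carrier Slc1a3, with 18, 1 and 0 reads in SAM, against 0, 1 and 1 in control. Nearly all of its SAM reads thus came from the library that remained. Calls over all tested genes were also fewer in that setting. Without SAM replicate 3 alone the number of members called was 6. Beside these changes, the 5 proximal tubule markers summed to 1297 to 1374 CPM in SAM and 1075 to 1186 CPM in control. That sum was mostly Aqp1, at 1267 CPM in SAM and 1031 CPM in control, whereas Lrp2 averaged 59.4 CPM in SAM and 101 CPM in control. The 8 tubular epithelial markers summed to 872 to 932 CPM in SAM and 843 to 873 CPM in control. Of the immune markers, Cd68 averaged 26.4 CPM in SAM and 13.6 CPM in control, while Adgre1 and Cd3e had 0 reads. The part of these shifts was not tested.

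In cells that also received TGFβ, SAM raised 4 members and lowered 5 relative to TGFβ alone (12.9%, beside 7.32% of all tested genes, 3.07% higher and 4.25% lower). Slc5a3 and Slc6a6 were higher and Slc7a1, Slc13a2os and Slc20a2 lower in both SAM comparisons. Slc20a1 and the thiamine carrier Slc19a2 were higher, and Slc1a5 and Slc16a1 lower, with SAM under TGFβ. Of these 9, only 6 were called without TGFβ+SAM replicate 1. All 3 of the other calls were falls: Slc1a5, Slc7a1 and Slc20a2.

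NAM produced no call among the carriers. NAM against control had 0 called members, and 0 by DESeq2, beside 0.00742% of all tested genes called. At an unadjusted p under 0.05 it had 7 of the 70 members, beside 722 of all 13469 tested genes. TGFβ+NAM against TGFβ also had 0 called members, beside 0.0817% of all genes (0.0297% higher and 0.052% lower), with 8 at an unadjusted p under 0.05 and 1 by DESeq2. That 1 was the sodium bicarbonate cotransporter Slc4a4. Whether NAM changed the TGFβ effect was tested as an interaction, which had 0 calls over members and over all genes (0%). At an unadjusted p under 0.05 it had 3 members, beside 462 of the 13469 genes.

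Phosphate enters cells through the sodium-coupled importers Slc20a1 and Slc20a2, which most tissues use to supply metabolism. Slc20a1 (ENSMUSG00000027397, chr2:129198764-129211616 in GRCm38, plus strand) stood at 486, 442 and 445 CPM in the TGFβ libraries, against 134, 144 and 155 CPM in control. With NAM the libraries read 521, 535 and 508 CPM in TGFβ+NAM, against 136, 139 and 157 CPM in NAM. With SAM they read 655, 699 and 596 CPM in TGFβ+SAM, against 184, 137 and 183 CPM in SAM. Every TGFβ library lay above every library without it: the lowest with TGFβ was 442 CPM and the highest without it 184 CPM. The changes were 1.67 ± 0.0971 (adjusted p = 3.23e-17), 1.86 ± 0.0971 (8.64e-19) and 1.95 ± 0.0971 (8.91e-20, and 2.97e-13 without SAM replicates 2 and 3). Slc20a1 was also higher in TGFβ+SAM than in TGFβ, by 0.51 ± 0.093 (adjusted p = 0.000201), with libraries that did not overlap. SAM against control gave 0.22 ± 0.097 (adjusted p = 0.146). Exons of Slc20a1 share 452 bases with an antisense transcript, 9830144P21Rik, and no source used here gives the strand setting of the counting.

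Slc20a2 (ENSMUSG00000037656, chr8:22476788-22569612 in GRCm38, plus strand) moved the other way. It stood at 64.9, 59.5 and 54.1 CPM in TGFβ, against 82.2, 82.4 and 87.3 CPM in control, a change of -0.49 ± 0.132 (adjusted p = 0.00508). TGFβ+NAM had 64.9, 45.2 and 47.4 CPM and NAM had 78.5, 86.3 and 88.6 CPM. TGFβ+SAM had 34.0, 39.8 and 46.4 CPM and SAM had 48.7, 52.0 and 58.6 CPM. All 3 pairs were without overlap, with -0.69 ± 0.132 (adjusted p = 8.87e-05) beside NAM and -0.40 ± 0.137 (0.0227) beside SAM. The last call ended without SAM replicate 3 or TGFβ+SAM replicate 1 or 2 (adjusted p = 0.0611 to 0.147) and without SAM replicates 2 and 3 (0.383). Slc20a2 was lowered by SAM too. It fell by 0.66 on the log2 scale in SAM against control (SE 0.131, adjusted p = 0.000425, and 0.0148 without SAM replicates 2 and 3) and by 0.57 in TGFβ+SAM against TGFβ (SE 0.137, adjusted p = 0.00522). This second call ended without TGFβ+SAM replicate 1, with -0.47 and an adjusted p of 0.0592. TGFβ+SAM had the lowest mean, 40.1 ± 6.19 CPM, and NAM and control the highest, 84.5 ± 5.30 and 84.0 ± 2.93 CPM. Libraries of TGFβ+NAM, SAM and TGFβ overlapped in between.

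The start regions of Slc20a1, Slc16a1 and Slc3a2 are shown because these genes carry the largest rise with TGFβ named above, a fall in all 3 TGFβ comparisons, and the single interaction with SAM among the carriers. Each window runs from 250 bases before to 50 bases after the annotated start (RefSeq, GRCm38.p6), in the direction of the gene. The first listed start of each gene was used. For Slc3a2 it lies within the gene's span (chr19:8706882-8723369, minus strand) and not at its upstream end, whose sequence is not shown. Capitals mark CAGACA, which holds the core bound by SMAD proteins, and CACGTG, the E-box of the MYC and USF families.
Slc20a1, chr2:129198523-129198822, plus strand: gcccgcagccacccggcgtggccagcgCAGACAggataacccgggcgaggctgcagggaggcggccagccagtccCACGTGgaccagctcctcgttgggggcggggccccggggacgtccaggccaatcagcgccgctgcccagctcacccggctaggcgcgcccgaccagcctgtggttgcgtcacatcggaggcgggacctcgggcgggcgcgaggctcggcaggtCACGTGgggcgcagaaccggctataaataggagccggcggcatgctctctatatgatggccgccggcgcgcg
Slc16a1, chr3:104638414-104638713, plus strand: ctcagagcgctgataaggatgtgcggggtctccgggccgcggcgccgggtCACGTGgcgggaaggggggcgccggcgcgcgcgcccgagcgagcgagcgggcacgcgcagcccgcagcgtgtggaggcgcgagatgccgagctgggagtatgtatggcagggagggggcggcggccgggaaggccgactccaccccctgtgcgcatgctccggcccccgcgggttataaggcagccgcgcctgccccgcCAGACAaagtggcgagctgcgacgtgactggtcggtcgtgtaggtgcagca
Slc3a2, chr19:8713848-8714147, minus strand: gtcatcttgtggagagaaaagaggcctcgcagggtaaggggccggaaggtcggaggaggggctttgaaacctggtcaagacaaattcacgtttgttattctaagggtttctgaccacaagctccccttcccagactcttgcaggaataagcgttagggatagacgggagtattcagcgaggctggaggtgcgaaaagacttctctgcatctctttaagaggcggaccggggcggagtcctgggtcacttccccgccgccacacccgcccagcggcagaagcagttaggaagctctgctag
Slc20a1 held CAGACA at position 28 and CACGTG at positions 76 and 229, counted from the first base, and Slc16a1 held CAGACA at position 250 and CACGTG at position 51. Slc3a2 held neither, and neither TGACTCA, the AP-1 motif, nor TGATGNAA, an amino acid response element core. Both strands were searched, and none of these motifs overlaps another in the 3 windows. Of the 70 tested members, 49 had a window, and some had several, with 66 windows in all. CAGACA was found in 9 of the 66 windows (21% of all 32851 windows hold it) and CACGTG in 7 (7.15%). TGACTCA was found in 5 of the 66 (5.2%) and TGATGNAA in 4 (3.97%). Counted by gene, these were 8, 6, 5 and 3 of the 49, which are not on the same base as the shares of windows. Both a gene that rose and a gene that fell with TGFβ carry CAGACA. A match describes letters in these windows and is not a binding site.

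**Figure D2:**
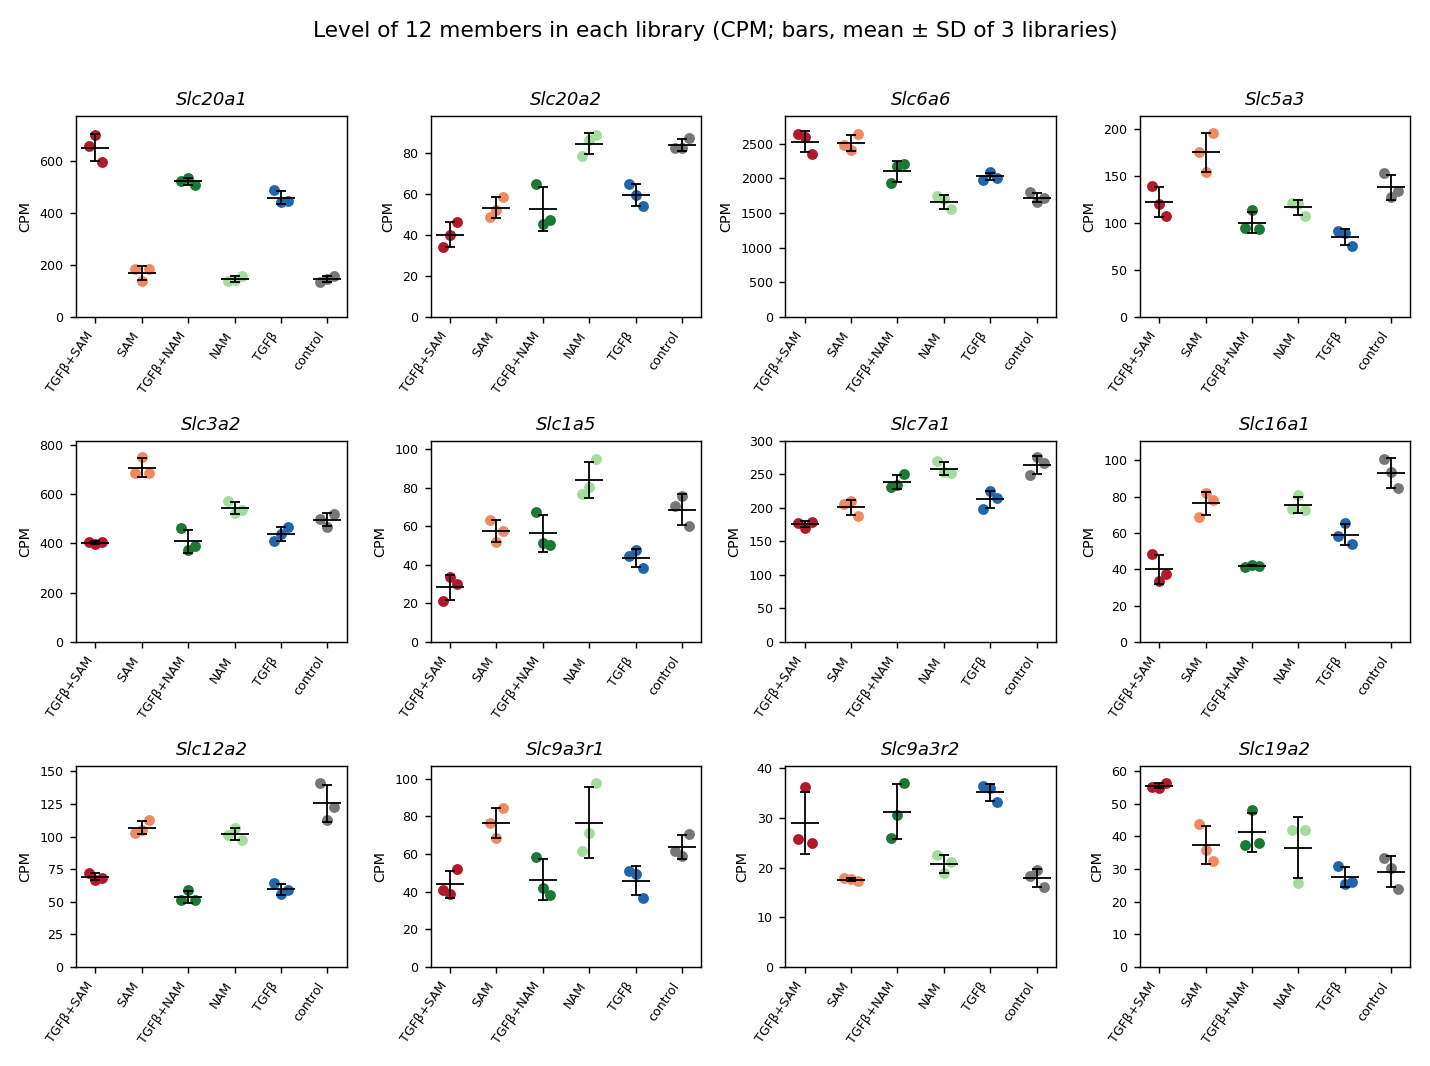
Level of 12 members in each library (CPM, 1 point per library; bars, mean ± SD of 3), with groups from TGFβ+SAM at the left to control at the right and axes that start at 0. Slc20a1 separates all TGFβ libraries from the rest, Slc6a6 separates the 6 libraries with SAM from those without, and Slc3a2 is highest in SAM alone.

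Amino acid carriers were the largest class, with 34 members, of which 21 had reads and 15 were tested. With TGFβ against control 1 rose and 3 fell, with NAM present 1 rose and 3 fell, and with SAM present 1 rose and 4 fell. These are 4, 4 and 5 of the 15, beside 19.4%, 21.9% and 28.4% called over all tested genes. SAM against control raised 2 and lowered 2, beside 11.8%. The summed level of the class was 885 to 965 CPM in TGFβ and 1070 to 1084 CPM in control, without overlap, and 829 to 899 CPM in TGFβ+SAM and 1202 to 1263 CPM in SAM. Sums over 3 against 3 libraries cannot give an exact permutation p below 0.1 and were not tested further.

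Slc3a2 (ENSMUSG00000010095, chr19:8706882-8723369 in GRCm38, minus strand) is the heavy chain that brings the exchangers Slc7a5, Slc7a6, Slc7a7 and Slc7a8 to the cell surface. It stood at 405, 397 and 406 CPM in TGFβ+SAM, against 684, 750 and 685 CPM in SAM. TGFβ alone had 411, 436 and 464 CPM and control had 500, 467 and 518 CPM. In neither pair did the libraries overlap, and SAM alone lay above all other groups. TGFβ lowered Slc3a2 by 0.81 on the log2 scale in the presence of SAM (SE 0.0832, adjusted p = 1.96e-10, and 4.12e-06 without SAM replicates 2 and 3) and by 0.41 in the presence of NAM (SE 0.083, adjusted p = 0.000177). Without a supplement the change was -0.18 ± 0.083 (adjusted p = 0.134). SAM alone raised it by 0.51 ± 0.0826 (adjusted p = 1.81e-05, and 0.0186 without SAM replicates 2 and 3).

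The interaction of SAM with TGFβ was called for Slc3a2 and for no other of the 70 members, beside 1.43% of all tested genes (0.802% higher and 0.631% lower), with 8 members at an unadjusted p under 0.05. The TGFβ effect with SAM minus the TGFβ effect without it was -0.63 ± 0.117 (adjusted p = 0.00102). The call held with each library left out in turn and ended without SAM replicates 2 and 3, at -0.57 and an adjusted p of 0.0666. Its partners showed other patterns, and were named after their values were seen. Slc7a5, the large neutral amino acid exchanger, averaged 123 ± 42.2 CPM in TGFβ+SAM and 119 ± 2.01 CPM in SAM, 122 ± 18.7 CPM in TGFβ and 118 ± 11.1 CPM in control. Its change with SAM against control was 0.01 ± 0.137 (adjusted p = 0.978). Slc7a6, an exchanger of arginine and glutamine, averaged 65.3 ± 5.51 CPM in TGFβ+SAM and 72.5 ± 5.33 CPM in SAM, 60.2 ± 6.39 CPM in TGFβ and 62.8 ± 2.79 CPM in control, with 0 calls in the 7 comparisons. Slc7a8 had no read.

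Slc7a7, the light chain that exports arginine and lysine at the basolateral side, was read at low level. TGFβ+SAM had 3.19, 4.40 and 4.03 CPM, against 1.52, 0.313 and 0.517 CPM in SAM, from 71 and 15 reads. TGFβ had 7.08, 7.07 and 5.41 CPM and control had 2.82, 3.72 and 2.87 CPM, also without overlap. It rose with TGFβ in the presence of SAM (2.26 ± 0.59, adjusted p = 0.00279) and of NAM (1.64 ± 0.532, adjusted p = 0.021), and fell with SAM against control (-1.96 ± 0.593, adjusted p = 0.0235). The call beside NAM ended without NAM replicate 3 or TGFβ+NAM replicate 3 (adjusted p = 0.0515 to 0.121) and the SAM call without control replicate 2 or SAM replicate 2 or 3 (0.082 to 0.111). Without SAM replicates 2 and 3 neither SAM comparison was called (adjusted p = 0.246 and 0.527), and with NAM replicate 3 and TGFβ+NAM replicate 1 left out the NAM one was not (0.155).

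Slc1a5, which exchanges glutamine and other neutral amino acids (ENSMUSG00000001918, chr7:16781340-16798274, plus strand), fell with TGFβ in every setting. It stood at 44.7, 47.6 and 38.6 CPM in TGFβ, against 70.3, 75.6 and 60.0 CPM in control. With SAM it was at 21.1, 33.6 and 30.1 CPM in TGFβ+SAM, against 63.2, 52.0 and 57.6 CPM in SAM. The groups did not overlap in either pair, with changes of -0.65 ± 0.147 (adjusted p = 0.000902) and -1.02 ± 0.152 (8.81e-07, and 4.07e-05 without SAM replicates 2 and 3), and -0.58 ± 0.143 (0.00214) beside NAM. TGFβ+SAM lay below TGFβ by 0.63 ± 0.156 (adjusted p = 0.00703), a call that ended without TGFβ+SAM replicate 1 (-0.46, adjusted p = 0.0922). The interaction with SAM was -0.37 ± 0.211 (adjusted p = 0.569).

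Slc7a1, the main importer of arginine and lysine in most cells (ENSMUSG00000041313, chr5:148327410-148399904, minus strand), was lower with either TGFβ or SAM. It stood at 178, 170 and 178 CPM in TGFβ+SAM, 199, 225 and 215 CPM in TGFβ, 205, 210 and 189 CPM in SAM, and 250, 276 and 267 CPM in control. Control lay above every library of the other 3 groups. SAM against control gave -0.39 ± 0.0842 (adjusted p = 0.00109, and 0.112 without SAM replicates 2 and 3), and TGFβ against control -0.31 ± 0.0844 (0.00565, and 0.0571 without TGFβ replicate 1). TGFβ+SAM against TGFβ gave -0.28 ± 0.0854 (adjusted p = 0.036). That call ended without TGFβ replicate 2 or 3 or TGFβ+SAM replicate 1 or 2 (0.0791 to 0.153), and in 4 other alternatives: library totals (0.0629), no low-count filter (0.0941), only the compared libraries (0.0841), and SAM replicates 2 and 3 left out (0.065). TGFβ+SAM against SAM gave -0.20 ± 0.0851 (adjusted p = 0.0791). With NAM present TGFβ gave -0.11 ± 0.0838 (adjusted p = 0.379).

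Slc6a18, a neutral amino acid cotransporter of the kidney brush border, had 3.03, 4.24 and 6.63 CPM in TGFβ, against 12, 12 and 10.8 CPM in control. It also stood at 0.355, 3.37 and 3.05 CPM in TGFβ+NAM, against 9.28, 8.22 and 11.9 CPM in NAM, and at 6.02, 1.63 and 4.81 CPM in TGFβ+SAM, against 9.72, 11.4 and 10.5 CPM in SAM. Each library with TGFβ lay below each library of its comparison group. The changes were -1.35 ± 0.402 (adjusted p = 0.0124), -2.09 ± 0.432 (0.00026) and -1.34 ± 0.402 (0.00937). The first call ended without TGFβ replicate 1 or 2 (adjusted p = 0.0505 to 0.0917), and the last without TGFβ+SAM replicate 2 (0.0876) or without SAM replicates 2 and 3 (0.132).

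Other amino acid carriers were called in 1 comparison each. Slc6a9, the glycine cotransporter, averaged 14.5 ± 3.31 CPM in TGFβ+SAM and 23.3 ± 2.46 CPM in SAM (-0.69 ± 0.218, adjusted p = 0.0145), a call that ended without SAM replicate 1 or TGFβ+SAM replicate 1 (0.0765 to 0.0975) and held without SAM replicates 2 and 3 (0.0465). Slc16a10 averaged 16.7 ± 3.02 CPM in SAM and 9.11 ± 4.30 CPM in control (0.88 ± 0.279, adjusted p = 0.0331), and lost its call without control replicate 2, SAM replicate 1 or SAM replicate 3 (0.0525 to 0.283) and without SAM replicates 2 and 3 (0.366). Slc1a3 had 36 reads in TGFβ and 2 in control, a ratio of 22 with a 95% counting interval from 5.66 to 189 that covers counting error only. It was called in this comparison (adjusted p = 0.00873), and the call ended without control replicate 1 (0.0586). Slc1a3 did not pass the low-count filter when only the TGFβ and control libraries were fitted. In SAM it had 2.73, 0.156 and 0 CPM, so that 1 library held nearly all reads.

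Taurine, betaine and creatine are organic osmolytes or energy buffers, and the carriers that take them up share a class with the transmitter carriers. Of 19 members 7 had reads and 3 were tested. Slc6a6, the taurine carrier (ENSMUSG00000030096, chr6:91684053-91759066, plus strand), had 234211 reads over all libraries, the most of any of the 190. It stood at 2644, 2601 and 2360 CPM in TGFβ+SAM and 1984, 2091 and 2013 CPM in TGFβ. SAM had 2486, 2419 and 2648 CPM and control had 1801, 1659 and 1714 CPM. All libraries with SAM lay above all libraries without it. The increases were 0.55 ± 0.0725 for SAM against control (adjusted p = 4.93e-07, and 0.00147 without SAM replicates 2 and 3) and 0.32 ± 0.0724 for TGFβ+SAM against TGFβ (0.00282).

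Slc6a6 also rose with TGFβ, by 0.23 ± 0.0724 against control (adjusted p = 0.0164) and 0.34 ± 0.0724 beside NAM (0.000451). In TGFβ+SAM against SAM the change was 0.01 ± 0.0722 (adjusted p = 0.941), but the interaction, -0.23 ± 0.102, was not called (0.414). Leaving out control replicate 2 or 3 or TGFβ replicate 2 ended the call against control (adjusted p = 0.0678 to 0.093). Slc6a8, the creatine carrier, averaged 67.5 ± 7.93 CPM in TGFβ+SAM, 99.1 ± 15.4 CPM in SAM, 68.2 ± 2.67 CPM in TGFβ and 70.4 ± 3.90 CPM in control. It was higher in SAM than in control (0.49 ± 0.124, adjusted p = 0.00587) and lower in TGFβ+SAM than in SAM (-0.55 ± 0.125, adjusted p = 0.000593). The first call ended without SAM replicate 3 (0.0984), and without SAM replicates 2 and 3 neither was called (0.252 and 0.0718). The betaine carrier Slc6a12 had no read.

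Sugar and polyol carriers numbered 20, of which 15 had reads and 7 were tested. TGFβ against control lowered 1, Slc5a3, and raised 0. It lowered 3 of the class with NAM and 2 with SAM present, beside 9.74%, 11% and 14.2% of all tested genes lower in these comparisons. Slc5a3 imports myo-inositol, an osmolyte (ENSMUSG00000089774, chr16:92058322-92087473, plus strand), and stood at 91.2, 89.1 and 75.2 CPM in TGFβ, against 153, 127 and 134 CPM in control. TGFβ+SAM had 140, 121 and 107 CPM and SAM had 176, 154 and 196 CPM. Neither pair overlapped, with -0.69 ± 0.114 (adjusted p = 8.74e-06) and -0.52 ± 0.111 (0.000319, and 0.0154 without SAM replicates 2 and 3). Beside NAM the libraries overlapped, at 94.7, 113 and 93.1 CPM in TGFβ+NAM, against 122, 121 and 108 CPM in NAM (-0.22 ± 0.113, adjusted p = 0.184). Relative to TGFβ alone, TGFβ+SAM was higher by 0.52 ± 0.115 (adjusted p = 0.00222). SAM exceeded control by 0.34 ± 0.11 (adjusted p = 0.034), a call that ended without control replicate 2 or 3 or SAM replicate 1 or 3 (0.0955 to 0.224) and without SAM replicates 2 and 3 (0.257). Its exons share 159 bases with Mrps6 on the same strand, so some reads may belong to either.

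Slc2a9, which carries urate, averaged 12.5 ± 3.41 CPM in TGFβ+SAM and 28.3 ± 5.00 CPM in SAM, a change of -1.18 ± 0.22 (adjusted p = 4.46e-05, and 0.000263 without SAM replicates 2 and 3). It averaged 11.1 ± 1.82 CPM in TGFβ+NAM and 23 ± 3.78 CPM in NAM (-1.05 ± 0.223, adjusted p = 0.000388), and 12.2 ± 2.41 CPM in TGFβ and 18.0 ± 1.13 CPM in control (-0.55 ± 0.226, adjusted p = 0.0857). All 3 pairs were without overlap. SAM alone gave 0.65 ± 0.213 (adjusted p = 0.037), which ended when any control library or SAM replicate 1 or 3 was left out (0.0586 to 0.223), and without SAM replicates 2 and 3 (0.069). Slc2a1, the basal glucose carrier, averaged 34.5 ± 7.06 CPM in TGFβ+NAM and 57.4 ± 4.25 CPM in NAM (-0.74 ± 0.156, adjusted p = 0.000383). In TGFβ it averaged 43.6 ± 10.4 CPM and in control 55.9 ± 4.04 CPM (-0.37 ± 0.156, adjusted p = 0.0931). Slc2a8, an intracellular hexose carrier, was called beside NAM (-0.73 ± 0.237, adjusted p = 0.022), but not without NAM replicate 1 or 2 or TGFβ+NAM replicate 2 (0.0813 to 0.149), nor when only the compared libraries were fitted (0.056). Against control TGFβ gave -0.63 ± 0.235 (adjusted p = 0.0542), and 0.0305 to 0.0441 in the 4 alternatives that called it.

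Cation-chloride cotransporters set cell volume and chloride. Of 9 members all had reads and 6 were tested. Slc12a2 loads the cell with sodium, potassium and chloride (ENSMUSG00000024597, chr18:57878678-57946821, plus strand), and Slc12a7 releases potassium and chloride. Slc12a2 stood at 64.2, 55.8 and 58.7 CPM in TGFβ, against 141, 113 and 123 CPM in control. With NAM the values were 51.2, 59.1 and 51.3 CPM in TGFβ+NAM, against 101, 107 and 97.8 CPM in NAM. With SAM they were 72.3, 66.9 and 68.6 CPM in TGFβ+SAM, against 103, 105 and 113 CPM in SAM. All 9 TGFβ libraries lay below all 9 libraries without it. The changes were -1.08 ± 0.109 (adjusted p = 2.48e-10), -0.92 ± 0.109 (1.11e-08) and -0.63 ± 0.108 (1.24e-05, and 0.00763 without SAM replicates 2 and 3), and the interaction with SAM was 0.45 ± 0.153 (0.169).

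Slc12a7 rose slightly, at 162 ± 9.58 CPM in TGFβ and 135 ± 7.63 CPM in control (0.26 ± 0.0937, adjusted p = 0.0408), and at 180 ± 4.22 CPM in TGFβ+NAM and 141 ± 15.3 CPM in NAM (0.35 ± 0.0928, adjusted p = 0.00433). The first call ended without control replicate 2 or 3 or TGFβ replicate 1 or 2 (0.0964 to 0.18), with library totals in place of TMM scaling (0.0851), with no low-count filter (0.109) and without SAM replicates 2 and 3 (0.0674). The second ended without NAM replicate 2 (0.0609). With SAM present no change was called, at 153 ± 5.14 CPM in TGFβ+SAM and 148 ± 8.45 CPM in SAM (0.05 ± 0.0933, adjusted p = 0.727). The summed level of the class, 366 to 403 CPM in TGFβ and 402 to 438 CPM in control, overlapped slightly.

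Bicarbonate carriers move acid equivalents across either face of the tubule cell. Of 10 members 8 had reads and 6 were tested. TGFβ against control called 0 of the 6, TGFβ+NAM against NAM 2 falls, and TGFβ+SAM against SAM 3 falls and 1 rise, beside 19.4%, 21.9% and 28.4% called over all tested genes. Slc4a2, an exchanger of chloride for bicarbonate, stood at 117, 113 and 95 CPM in TGFβ+SAM, against 160, 137 and 157 CPM in SAM. TGFβ had 84.9, 107 and 109 CPM and control had 119, 113 and 110 CPM. SAM was above every other library of these 4 groups. The change was -0.49 ± 0.106 for TGFβ+SAM against SAM (adjusted p = 0.000379, and 0.00593 without SAM replicates 2 and 3) and 0.41 ± 0.105 for SAM against control (0.0065), a call that ended without SAM replicate 1 (0.0514) and without SAM replicates 2 and 3 (0.0593). Exons of Slc4a2 share 1141 bases with Fastk on the opposite strand, and without a stated strand setting reads of both cannot be told apart.

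Slc4a11, a carrier of protons and water, showed a like pattern, at 57.7 ± 1.38 CPM in TGFβ+SAM and 76.8 ± 2.68 CPM in SAM, 49.8 ± 0.706 CPM in TGFβ and 59.0 ± 7.44 CPM in control. It was lower in TGFβ+SAM than in SAM (-0.41 ± 0.125, adjusted p = 0.0106) and higher in SAM than in control (0.38 ± 0.125, adjusted p = 0.0379). The SAM call ended when control replicate 1 or 2 or any SAM library was left out (0.061 to 0.25), and without SAM replicates 2 and 3 neither was called (0.0751 and 0.208).

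Slc4a7, which imports sodium with bicarbonate, rose to 60.4 ± 9.85 CPM in TGFβ+SAM, against 35.6 ± 9.70 CPM in SAM (0.76 ± 0.154, adjusted p = 0.000153, and 2.69e-05 without SAM replicates 2 and 3), while 49.7 ± 4.66 CPM in TGFβ and 39.0 ± 3.75 CPM in control gave 0.35 ± 0.155 (0.116). Slc4a8, another sodium-driven exchanger, averaged 2.53 ± 0.806 CPM in TGFβ+SAM and 7.05 ± 0.849 CPM in SAM (-1.47 ± 0.443, adjusted p = 0.00985). That call ended without TGFβ+SAM replicate 3 (0.0505) and without SAM replicates 2 and 3 (0.178). Slc4a3, a further anion exchanger, averaged 8.27 ± 2.46 CPM in TGFβ+NAM and 17 ± 2.01 CPM in NAM (-1.03 ± 0.256, adjusted p = 0.00222), and lost its call without NAM replicate 3 and TGFβ+NAM replicate 1 together (0.0667).

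Slc4a4, the electrogenic cotransporter through which proximal tubule cells return bicarbonate to the blood, is the carrier nearest to a NAM effect. It stood at 66.7, 62.0 and 68.5 CPM in TGFβ+NAM, against 91.5, 105 and 96.1 CPM in TGFβ. NAM alone had 89.1, 102 and 65.5 CPM and control had 121, 109 and 112 CPM. Both pairs were without overlap, as were 11.8% of all tested genes in TGFβ+NAM against TGFβ and 13.5% in NAM against control. TGFβ+NAM against TGFβ gave -0.57 ± 0.127 (adjusted p = 0.056), just short of the threshold, and NAM against control gave -0.42 ± 0.122 (0.544). Under DESeq2 the change under TGFβ was called (adjusted p = 0.0212), as it was with library totals (0.0472), without the low-count filter (0.0021) and with NAM replicate 3 and TGFβ+NAM replicate 1 left out (0.0207). It was not called with DESeq2-type size factors within edgeR, with only the compared libraries or with a replicate block. Nor was it called with any single TGFβ or TGFβ+NAM library left out. TGFβ+NAM was also lower than NAM, by -0.38 ± 0.126 (adjusted p = 0.0252), which ended without NAM replicate 1 or 2 or TGFβ+NAM replicate 2 (0.0935 to 0.269) and when only the compared libraries were fitted (0.0751).

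Slc16a1 carries lactate, pyruvate and ketone bodies with a proton (ENSMUSG00000032902, chr3:104638668-104658462, plus strand). Among 18 carboxylate carriers 12 had reads and 3 were tested, and Slc16a1 was called in all 3 TGFβ comparisons. It stood at 58.1, 65.4 and 53.8 CPM in TGFβ, against 101, 93.4 and 84.6 CPM in control. Beside NAM the values were 41.5, 42.3 and 42.0 CPM in TGFβ+NAM, against 73.4, 80.7 and 72.4 CPM in NAM. Beside SAM they were 48.5, 33.6 and 37.4 CPM in TGFβ+SAM, against 68.9, 81.7 and 77.9 CPM in SAM. All TGFβ libraries lay below all libraries without it. The changes were -0.65 ± 0.125 (adjusted p = 0.00011), -0.85 ± 0.128 (1.6e-06) and -0.94 ± 0.129 (1.74e-07, and 0.00115 without SAM replicates 2 and 3), and TGFβ+SAM was lower than TGFβ by 0.58 ± 0.131 (0.003). The 2 motif matches in its start region are given above.

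Peptide carriers numbered 5, with 2 tested, and metal carriers 2, with 1 tested. Slc15a2, the high-affinity peptide carrier of the kidney, stood at 7.41, 9.74 and 6.63 CPM in TGFβ, against 13.7, 14.2 and 20.8 CPM in control (-1.01 ± 0.245, adjusted p = 0.002). It averaged 10.5 ± 2.05 CPM in TGFβ+SAM and 20.7 ± 1.27 CPM in SAM (-0.98 ± 0.235, adjusted p = 0.00116, and 0.0165 without SAM replicates 2 and 3), and beside NAM the change was -0.51 ± 0.237 (adjusted p = 0.124). The lysosomal peptide carrier Slc15a4 had 0 calls, at 78.3 ± 1.38 CPM in TGFβ and 78.4 ± 11.6 CPM in control. Slc11a2, which imports ferrous iron, averaged 39.2 ± 5.15 CPM in TGFβ and 59.1 ± 4.69 CPM in control (-0.58 ± 0.14, adjusted p = 0.00168). In TGFβ+SAM it averaged 35.7 ± 1.35 CPM and in SAM 47.0 ± 5.32 CPM (-0.40 ± 0.141, adjusted p = 0.0309). That call ended without SAM replicate 3 or any TGFβ+SAM library (0.0556 to 0.168), with no low-count filter (0.0556) and without SAM replicates 2 and 3 (0.341).

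Organic ion carriers had 30 members, 16 with reads and 7 tested, with 0 rises in any of the 7 comparisons. Of all tested genes, 9.7%, 10.9% and 14.2% were called higher in the 3 TGFβ comparisons and at most 5.02% in the others. TGFβ lowered 2 of the class against control, 2 with NAM and 1 with SAM present, beside 9.74%, 11% and 14.2% of all tested genes. Slc22a23, whose substrate is not known, averaged 77.4 ± 8.21 CPM in TGFβ and 100 ± 6.58 CPM in control (-0.37 ± 0.112, adjusted p = 0.0142, ending without control replicate 1 or TGFβ replicate 3 at 0.0879 to 0.113). Slc17a5, which exports sialic acid from lysosomes, averaged 9.19 ± 0.507 CPM in TGFβ and 15.5 ± 2.06 CPM in control (-0.75 ± 0.236, adjusted p = 0.0191), and the call ended without control replicate 3 or TGFβ replicate 2 or 3 (0.0595 to 0.0994). Slc22a4, the ergothioneine carrier, had 2.13, 0.652 and 2.33 CPM in TGFβ+SAM, against 5.77, 9.22 and 10.9 CPM in SAM. It fell in that comparison (-2.33 ± 0.494, adjusted p = 0.000287, and 0.0726 without SAM replicates 2 and 3). Beside NAM it fell by 1.40 (SE 0.485, adjusted p = 0.0316), which ended without NAM replicate 1 or 2 or TGFβ+NAM replicate 1 or 3 (0.0574 to 0.184), when only the compared libraries were fitted (0.0623) and with NAM replicate 3 and TGFβ+NAM replicate 1 left out (0.0937).

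Slc14a1, the facilitative urea channel (ENSMUSG00000059336, chr18:78100091-78142119, minus strand), lost nearly all of its reads with TGFβ. It had 0, 0 and 0 reads in TGFβ, against 22, 13 and 7 reads in control, and 0, 0 and 0 reads in TGFβ+NAM, against 16, 7 and 7 in NAM. In TGFβ+SAM it had 5, 0 and 0 reads, against 30, 36 and 27 in SAM. No library with TGFβ reached any library of its comparison group. Taking 3 reads over the group as the floor for a count of 0, TGFβ was at least 11.5-fold lower than control and TGFβ+NAM at least 7.99-fold lower than NAM. In the fit of all libraries the 3 comparisons were called (adjusted p = 0.00143, 0.00365 and 0.00113). Slc14a1 entered that fit only through its level in groups without TGFβ, and did not pass the low-count filter when only TGFβ and control, or only TGFβ+NAM and NAM, were fitted, so these 2 calls rest on the inclusion of the other groups. The call for TGFβ+SAM against SAM held without SAM replicates 2 and 3 (0.0382).

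Slc19a2 imports thiamine (ENSMUSG00000040918, chr1:164249046-164265385, plus strand) and was highest in TGFβ+SAM, at 55.3, 55 and 56.5 CPM, against 31.0, 25.5 and 26.0 CPM in TGFβ. SAM had 43.7, 35.8 and 32.4 CPM and control had 33.3, 30.5 and 24.0 CPM. TGFβ+SAM lay above every library of the other 5 groups. It exceeded TGFβ by 1.01 ± 0.171 (adjusted p = 5.64e-05) and SAM by 0.57 ± 0.166 (0.00724). The call against SAM ended without SAM replicate 3 (0.0546) and without SAM replicates 2 and 3 (0.365). Whether TGFβ acted differently with SAM was not called (0.66 ± 0.241, adjusted p = 0.22).

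The classes without any call were sodium-proton exchange, with 5 tested of 12, sodium-calcium exchange, with 1 tested of 4, and bile acids and steroid sulfates, with 2 tested of 7. Over all tested genes 19.4%, 21.9% and 28.4% were called in the 3 TGFβ comparisons. With so few tested members, the absence of calls is not a trait of these classes. Slc8b1, the mitochondrial exchanger, averaged 3.89 ± 1.60 CPM in TGFβ+SAM and 7.83 ± 4.04 CPM in SAM (-1.02, adjusted p = 0.0905), with overlapping libraries, and was called without SAM replicates 2 and 3 (-1.68, adjusted p = 0.0305). Slc10a3, of unknown substrate, averaged 28.2 ± 3.10 CPM in TGFβ and 23 ± 1.37 CPM in control (0.30 ± 0.207, adjusted p = 0.364). The summed level of sodium-proton exchangers was 72.2 to 86.4 CPM in TGFβ and 74.5 to 88.1 CPM in control, which overlap over most of their range.

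Scaffold genes that share a carrier symbol moved in opposite directions. Slc9a3r1 and Slc9a3r2 encode the NHERF proteins, which tether carriers and channels beneath the apical membrane. Slc9a3r2 stood at 36.4, 36.0 and 33.2 CPM in TGFβ, against 18.3, 19.4 and 16 CPM in control (0.97 ± 0.179, adjusted p = 5.89e-05). Slc9a3r1 stood at 50.9, 49.5 and 36.9 CPM in TGFβ, against 61.4, 59.1 and 70.8 CPM in control (-0.47 ± 0.161, adjusted p = 0.0341). In both genes the groups did not overlap. The Slc9a3r1 call against control ended without control replicate 1 or 3 or TGFβ replicate 3 (0.0583 to 0.21). Its other changes were -0.73 ± 0.158 beside NAM (adjusted p = 0.000513) and -0.80 ± 0.159 beside SAM (0.000119, and 0.00767 without SAM replicates 2 and 3). Slc9a3r2 gave 0.59 ± 0.176 beside NAM (adjusted p = 0.0122, ending without NAM replicate 2 or TGFβ+NAM replicate 3 at 0.0627 to 0.112) and 0.72 ± 0.181 beside SAM (0.00203, and 0.0725 without SAM replicates 2 and 3).

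Slc13a2os is an antisense transcript of the dicarboxylate carrier Slc13a2, whose exons it overlaps by 632 bases. It stood at 4.25, 3.91 and 1.71 CPM in TGFβ+SAM and 8.26, 10.4 and 16 CPM in TGFβ. SAM had 0.152, 1.56 and 0.345 CPM and control had 4.09, 7.01 and 8.45 CPM. Libraries with SAM were below those without it in both pairs. SAM gave -3.19 ± 0.508 against control (adjusted p = 1.41e-05, and 0.000311 without SAM replicates 2 and 3) and -1.80 ± 0.402 under TGFβ (0.00258). TGFβ raised it in the presence of SAM by 2.21 ± 0.544 (0.00161, and 0.00191 without SAM replicates 2 and 3). The pseudogene Slc2a4rg-ps averaged 4.20 ± 0.816 CPM in TGFβ and 11.3 ± 1.07 CPM in control (-1.42 ± 0.36, adjusted p = 0.00298). Beside NAM it was not called, at 7.12 ± 2.94 CPM in TGFβ+NAM and 6.28 ± 2.09 CPM in NAM (0.18 ± 0.347, adjusted p = 0.783). In TGFβ+SAM against SAM it gave -1.02 ± 0.339 (adjusted p = 0.0199), ending without SAM replicate 3 or TGFβ+SAM replicate 1 (0.122 to 0.17) and without SAM replicates 2 and 3 (0.177).

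**Figure D3:**
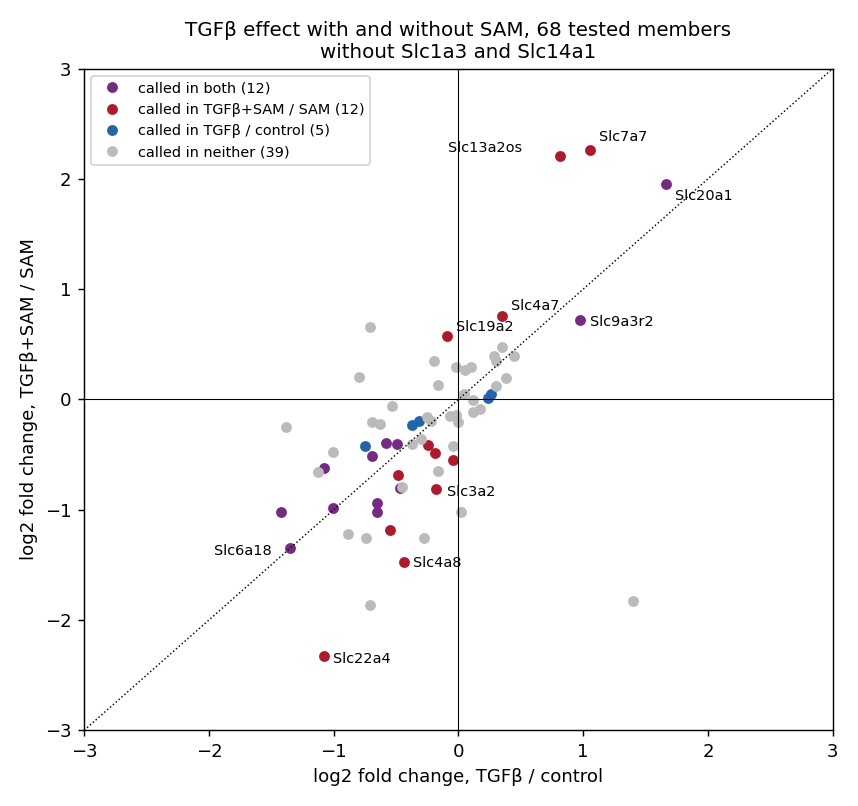
TGFβ effect on 68 tested members without SAM (x axis, log2 fold change of TGFβ over control) and with SAM (y axis, TGFβ+SAM over SAM); Slc1a3 and Slc14a1 are left off because 1 group had at most 2 reads, and the dotted line marks equal effects. Slc20a1 lies near the line at 1.67 and 1.95, while Slc3a2 lies at -0.18 and -0.81.

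The summed levels of some classes also differed. Phosphate, sulfate and iodide carriers summed to 499 to 551 CPM in TGFβ and 216 to 243 CPM in control. Slc20a1 made up 442 to 486 CPM of this in TGFβ and 134 to 155 CPM in control. Slc20a2, which fell, made up 54.1 to 64.9 CPM in TGFβ and 82.2 to 87.3 CPM in control. Sugar and polyol carriers summed to 148 to 165 CPM in TGFβ and 218 to 255 CPM in control, and carboxylate carriers to 63.1 to 73.5 CPM in TGFβ and 94.1 to 113 CPM in control. Organic ion carriers summed to 84.3 to 103 CPM in TGFβ and 126 to 139 CPM in control. In these classes the groups did not overlap. For SAM against control, bicarbonate carriers summed to 396 to 417 CPM in SAM and 330 to 355 CPM in control. The class of transmitters, creatine, taurine and betaine summed to 2510 to 2766 CPM in SAM and 1736 to 1870 CPM in control, and to 90.3 to 117 CPM and 69.3 to 76.8 CPM once Slc6a6 was left out.

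**Figure D4:**
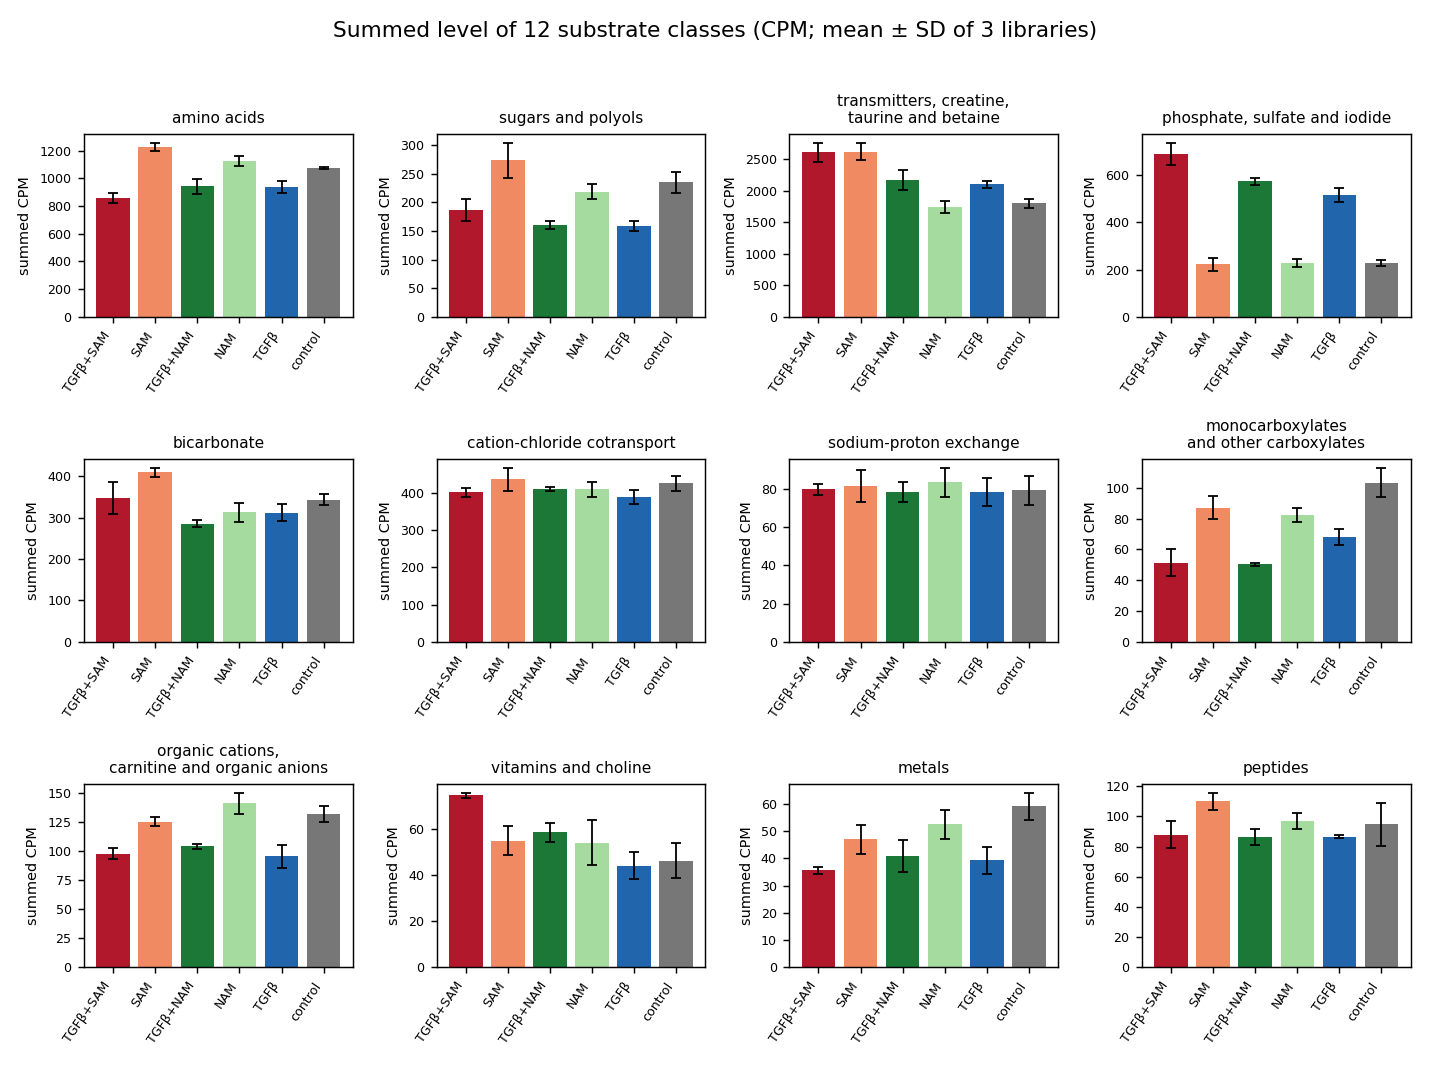
Summed level of 12 substrate classes (CPM, bars from 0, mean ± SD of 3 libraries), with groups from TGFβ+SAM at the left to control at the right. The phosphate class stands at 517 CPM in TGFβ and 229 CPM in control, and the sodium-proton class is near 80 CPM in every group.

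Solute carriers of families 23 and above, with the Slco genes, also held more falls than rises, with 203 genes of which 119 were tested. TGFβ against control raised 5 and lowered 22 (22.7%, beside 19.4% of all tested genes), with a median of -0.115 against 0.00857. The prostaglandin carrier Slco2a1 averaged 77.5 ± 11.5 CPM in TGFβ and 302 ± 11.9 CPM in control (-1.96 ± 0.117, adjusted p = 6.89e-17), and Slc43a2, an amino acid carrier, 15.9 ± 3.45 CPM in TGFβ and 72.2 ± 3.79 CPM in control (-2.20 ± 0.141, 5.33e-16). No test set these counts against those of families 1 to 22. SAM raised 8 and lowered 5 of the 119 (10.9%, beside 11.8%), and 4 and 1 without SAM replicates 2 and 3. The heme carrier Slc48a1 averaged 625 ± 12.6 CPM in SAM and 350 ± 6.52 CPM in control (0.84 ± 0.083, adjusted p = 6.76e-10, and 5.73e-06 without SAM replicates 2 and 3).

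Carriers depend on partners, and 24 of 25 listed genes for pumps, carbonic anhydrases and regulators were matched, with 18 tested. TGFβ raised 2 and lowered 8 of them (55.6%, beside 19.4% of all tested genes). Atp1b1, a beta subunit of the sodium pump that maintains the gradient for sodium-coupled carriers, fell to 135 ± 16.8 CPM in TGFβ, against 1068 ± 25.3 CPM in control (-2.98 ± 0.0888, adjusted p = 9.84e-27). The carbonic anhydrases Car12 and Car2, which supply bicarbonate, changed by -2.68 ± 0.252 (adjusted p = 3.38e-11) and -1.82 ± 0.18 (1.34e-10). SAM raised 3 and lowered 1 of the 18 (22.2%, beside 11.8%), and 2 and 0 without SAM replicates 2 and 3. Atp1b1 rose to 1490 ± 47.8 CPM in SAM, against 1068 ± 25.3 CPM in control (0.48 ± 0.0804, adjusted p = 3.48e-05, and 0.0224 without SAM replicates 2 and 3). Nedd4l, a ubiquitin ligase of channels and carriers, rose by 0.39 ± 0.0982 (adjusted p = 0.00577), and Wnk1, a kinase upstream of the cation-chloride cotransporters, fell by 0.30 on the log2 scale (SE 0.0773, adjusted p = 0.00776). Without SAM replicates 2 and 3 neither was called (0.101 for Nedd4l and 0.061 for Wnk1).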

How the data were processed

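RNA from 18 im-TEC libraries was measured with QuantSeq 3′ tag sequencing, per the labels' protocols. The authors deposited 1 table of unnormalized read counts; STAR and HTSeq were used and GRCh38 is named as the build, per the submitters' processing notes, without versions or a strand setting. The identifiers are mouse Ensembl genes, which leaves the build unsettled. Symbols (55141 of 55487 identifiers matched) and coordinates come from GENCODE M21 (GRCm38), start regions from RefSeq (GRCm38.p6). Reads outside genes (22.8% to 28.2%) and ambiguous reads (0.607% to 0.779%) were left out.

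Groups follow the sample titles. All libraries entered 1 quasi-likelihood fit in edgeR 4.0.16 (R 4.3.3) with a term per group, TMM scaling and filterByExpr with a minimum count of 10, which was checked on simulated data. The 7 comparisons and 2 interactions were two-sided contrasts, adjusted by Benjamini-Hochberg within each. CPM are mean ± SD of 3 libraries. Intervals and the floor of 3 reads cover counting error only.

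The members and lists were chosen with earlier results of these data known. Members were named by a rule: in each class, up to 4 called with the smallest p in TGFβ against control and up to 4 in SAM against control at a mean of at least 2 CPM, every member called in an interaction, and the member with the highest mean. Slc1a3, Slc2a1, Slc2a8, Slc4a3, Slc4a4, Slc4a7, Slc4a8, Slc6a9, Slc7a7 and Slc22a4 fall outside it and were named after their values were seen, because they were called in a comparison. Some genes that the rule names are not reported here.

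Tried as alternatives were DESeq2 1.42.0, its type of size factors within edgeR, library totals, no low-count filter, the compared libraries alone, a replicate block, leaving out each library, SAM replicates 2 and 3, or NAM replicate 3 with TGFβ+NAM replicate 1.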

Additional observations from a re-analysis of the deposited data

Results flagged for a closer look

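The TGFβ effect on Slc3a2 differed between cells with and without SAM, by a test of the difference itself: -0.63 ± 0.117 on the log2 scale (edgeR's quasi-likelihood test, adjusted p = 0.00102). TGFβ+SAM averaged 403 ± 4.85 CPM and SAM 706 ± 37.9 CPM, against 437 ± 26.9 CPM in TGFβ and 495 ± 25.7 CPM in control. The difference was -0.57 with an adjusted p of 0.0666 without SAM replicates 2 and 3, whose tags conflict with their titles. It was the 1 called interaction among 70 members, beside 1.43% of all tested genes.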

How the results depend on the processing

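Of the values of named members that were called, 1094 of 1207 alternatives kept direction and call, 113 kept the direction and lost the call, and 0 reversed. Of the values that were not called, 29 alternatives gave a call and 4232 did not, and the same value can recur among the 29. Members called in SAM against control numbered 5 without SAM replicates 2 and 3, against 12, and the SAM interaction 0, against 1; the remaining SAM library is then assumed to vary like the other groups, and with fewer samples 22 calls of named members ended. In TGFβ+NAM against TGFβ, 1 member was called with DESeq2, with library totals, with no low-count filter and with NAM replicate 3 and TGFβ+NAM replicate 1 left out, against 0. Members detected numbered 69 at a mean of at least 1 CPM, against 122 with at least 1 read. Leaving out single libraries gave 15 to 17 called members for TGFβ against control, 15 to 24 for TGFβ+NAM against NAM, 23 to 26 for TGFβ+SAM against SAM, 6 to 11 for SAM against control (lowest without SAM replicate 3), 6 to 9 for TGFβ+SAM against TGFβ (lowest without TGFβ+SAM replicate 1), 0 to 0 for both NAM comparisons and the NAM interaction, and 1 to 1 for the SAM interaction. Same-numbered libraries showed no strong shared deviation (r from -0.0997 to 0.0696, 9 of 18 closest to their own number). Such a correlation across genes cannot exclude a pairing, so whether the numbers pair the samples is not settled. With a replicate block, 19, 20 and 26 members were called in the 3 TGFβ comparisons, 12 in SAM against control, 9 in TGFβ+SAM against TGFβ, 0 in the NAM comparisons and NAM interaction, and 1 in the SAM interaction. Over the 7 comparisons the median SE of a log2 change was 0.22 to 0.236 among tested members, against 0.194 to 0.2 over all genes. In TGFβ against control it was 1.18 for Slc1a3, a carrier with few reads, and 0.0724 for Slc6a6, the carrier with the most. How SE depends on read number over all carriers was not tested.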

Other observations

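Some carriers had too few reads to be tested and are given as reads per library. Slc5a11, a sodium-inositol cotransporter, had 0, 0 and 0 reads in TGFβ+SAM, against 17, 15 and 6 in SAM, at least 12.3-fold lower with a floor of 3 reads over the group. It overlapped beside NAM, with 5, 0 and 4 reads in TGFβ+NAM, against 5, 11 and 0 in NAM. Slc5a2, the early proximal glucose cotransporter, had 0, 1 and 0 reads in TGFβ+SAM, against 10, 7 and 8 in SAM, a ratio of 0.0412 with a 95% counting interval from 0.001 to 0.252, and 3, 2 and 2 reads in TGFβ+NAM, against 5, 5 and 4 in NAM. Slc13a2, the citrate and succinate carrier, had 0 reads in TGFβ+SAM, against 9, 11 and 1 in SAM, at least 6.79-fold lower, and SAM against control (3, 0 and 0 reads) gave a ratio of 7.46 (2.23 to 39). Slc18a1, the vesicular monoamine carrier, had 1, 0 and 0 reads in TGFβ, against 13, 15 and 6 in control, a ratio of 0.036 (0.000885 to 0.214). The other groups did not share that pattern, with 0, 0 and 3 reads in TGFβ+NAM, against 0, 5 and 0 in NAM, and 2, 0 and 0 in TGFβ+SAM, against 0, 6 and 0 in SAM. Slc12a1, the sodium-potassium-chloride cotransporter of the thick limb, had 15, 3 and 0 reads in TGFβ, against 4, 1 and 2 in control, which overlap. Intervals cover counting error only, and these 5 genes were chosen after their values were seen.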
